A study of Homo sapiens with 6 samples.

Results

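The nuclear genes that encode respiratory complexes II, III, IV and V, with cytochrome c, were followed in Karpas-45 cells transduced with either a control (scramble) hairpin or one directed at MEF2C. Members were taken by symbol: SDHA, SDHB, SDHC, SDHD, CYC1, CYCS and every protein-coding gene whose symbol begins with UQCR, COX4, COX5, COX6, COX7, COX8 or ATP5. The rule used no measured value. Of 78932 gene identifiers, 172 met it by symbol, 120 of these were pseudogenes or other entries that are not protein-coding, and 52 members remained. Complex II had 4 members, complex III with cytochrome c 11, complex IV 17 and complex V 20. After the filter on low counts 45 of the 52 could be tested, among 17677 genes in all.

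Karpas-45 is an established line of T-cell acute lymphoblastic leukemia, labelled as leukemic blasts from bone marrow. Cells received a GFP-linked short hairpin RNA by lentivirus and were sorted for GFP 120 hours later. Control libraries carried the scramble hairpin, with the genotype label WT, and the others carried the hairpin shMEF2CKD2, with the genotype label MEF2C KD; both are labelled untreated and each has 3 technical replicates. The design thus holds 1 line and 1 hairpin against MEF2C, and p-values measure only the spread between technical replicates.

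In the inner mitochondrial membrane, complex II passes electrons from succinate to ubiquinone, complex III passes them from ubiquinol to cytochrome c, and complex IV passes them from cytochrome c to oxygen. Complexes III and IV pump protons as they do so, and complex V, the ATP synthase, lets the protons flow back through its membrane rotor to drive ATP synthesis in its F1 head. All 4 subunits of complex II come from nuclear genes, whereas complexes III, IV and V each also hold subunits encoded by mitochondrial DNA, so their assembly joins the products of both genomes.

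MEF2C itself, a MADS-box transcription factor, was counted 2, 1 and 0 times in the scramble libraries (replicates 1 to 3, the order used throughout) and 2, 0 and 0 times in the hairpin libraries, all under the 3 reads used as the floor of detection, so its level could not check the labels. Gene reads ran from 45560303 to 97077335 per library, and the floor corresponded to 0.0309 to 0.0658 CPM (counts scaled to the size of the library). The members took between 0.447% and 0.465% of gene reads in every library. Of 9 T-lineage markers, 7 passed the test as higher with the MEF2C hairpin, against 16.3% of tested protein-coding genes. The other 2, CD3E and CD247, did not pass it, at log2 fold changes (hairpin over scramble) of -0.032 and -0.035. The calls of LCK, CD3D and CD2 were lost with offsets for GC content and length. The summed level of the list was 2637 to 2687 CPM in scramble and 2769 to 2809 CPM in hairpin libraries. Lists of B-lineage, myeloid, erythroid, natural killer and epithelial or kidney markers summed to between 0.534 and 6.96 CPM in every library, with EPCAM at 0 reads. The part of the difference in T-lineage markers in the values that follow was not tested.

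Among the 45 tested members, 17 (37.8%) passed the test, 11 lower and 6 higher with the MEF2C hairpin. Of all genes tested, 28.8% passed it, 15.3% lower and 13.5% higher. Of the 12162 tested genes that are protein-coding, as all members are, 20.8% were lower and 16.3% higher. The lower members were UQCRFS1, CYC1, UQCRC1, UQCRC2 and CYCS of complex III and its electron carrier, COX4I1 and COX5A of complex IV, and ATP5F1A, ATP5F1B, ATP5PD and ATP5PF of complex V. The higher members were SDHC, UQCRH, COX6A1, COX7C, ATP5F1C and ATP5F1E. Every change was small: log2 fold changes (hairpin over scramble) ran from -0.16 to -0.075 among the lower members and from 0.080 to 0.13 among the higher ones, and no member reached an absolute value of 0.2. RNA came from bulk cells, so fewer cells of a kind and less RNA per cell cannot be told apart. All 11 lower members had hairpin libraries wholly below the scramble libraries, and 10 tested members, 5 of them past the threshold, had hairpin libraries wholly above. Over all genes tested, 39.9% had groups that did not overlap, 20.5% with the hairpin below and 19.5% with it above.

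**Figure D1:**
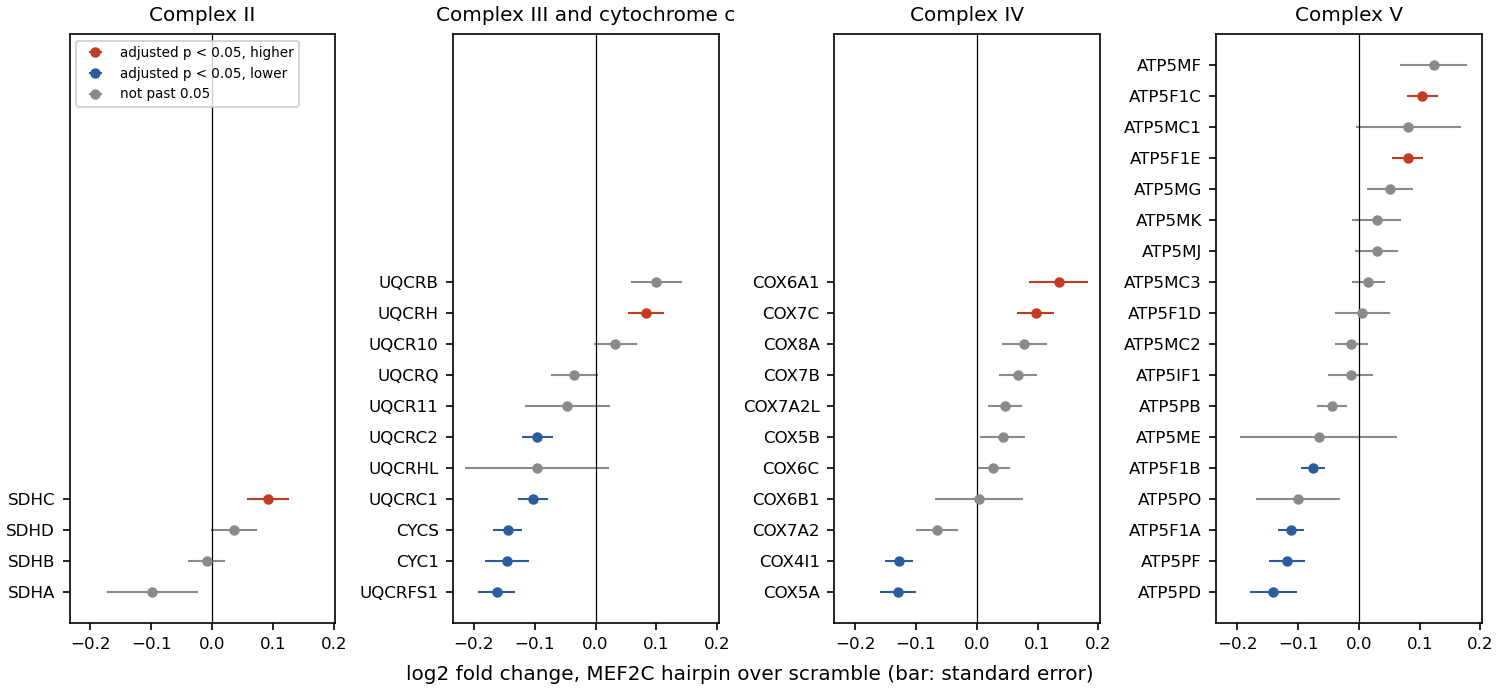
Log2 fold change (MEF2C hairpin over scramble) of the tested members, with its standard error as a bar, in 4 panels by complex (n = 3 libraries per group). ATP5MF-PTCD1, though tested, is not drawn. Blue and red mark members past an adjusted p of 0.05, grey the others. In complex III and cytochrome c, 5 of 11 members sit to the left of 0 in blue, while complex II has 1 red point and no blue one. Of tested protein-coding genes, 20.8% were lower and 16.3% higher.

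Abundance has to be read beside these counts. Of 2515 protein-coding genes with a mean of at least 100 CPM, 44.8% were lower and 12.5% higher, and of the 13 members at that level 6 (46.2%) were lower and 2 higher. Between 50 and 100 CPM, 29.5% of 2323 protein-coding genes were lower against 5 of 21 members (23.8%), and 16.0% were higher against 3 of 21 members (14.3%). At both levels the members' share of lower calls lay near that of protein-coding genes as a whole, and the difference was not tested. The median log2 fold change was 0.00 over the 45 members and 0.00 over all genes tested. At 100 CPM or more it was -0.044 over the 13 members and -0.050 over the protein-coding genes. Between 50 and 100 CPM it was 0.029 over the 21 members and -0.028 over the protein-coding genes. With offsets for GC content and length, members past the threshold went to 15 lower and 3 higher. The share called higher went from 35.3% to 16.7% of the members called and from 46.8% to 31.6% of all genes called. With these offsets the median log2 fold change was -0.069 over the members and -0.037 over all genes tested. Without scramble replicate 1, 12 members were lower and 1, ATP5F1C, was higher.

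Promoter sequences are shown because nuclear respiratory genes are known targets of NRF1, of the ETS factor GABP and of YY1, and because members of 1 complex could be compared at their start sites. RefSeq windows on GRCh38.p14, from 250 bases before to 50 after a start site, were found for 39 members, some with more than 1 start, giving 45 windows. The letters searched on both strands were GCGCANGCG for NRF1, CCGGAAG for GABP and YY1's AAGATGG; none of these holds another. The NRF1 letters were in 14 of 45 member windows (31.1%) against 7.44% of 34943 windows of all genes and 12.7% of the windows of tested protein-coding genes. For GABP the shares were 37.8%, 10.2% and 17.1%, and for YY1 22.2%, 5.85% and 7.17%. The windows divided by outcome held the NRF1 letters in 3 of 11 lower, 2 of 5 higher and 8 of 25 uncalled windows. For GABP these counts were 5, 2 and 10, and for YY1 4, 1 and 5. These are windows and not genes: ATP5F1A and ATP5PF each gave 2 of the 11 lower windows. The 2 windows of ATP5PF overlap, so its YY1 match and 1 of its GABP matches were counted in each. The stretches below run 5′ to 3′ on the strand of the gene, upstream of the RefSeq start, with the matched letters in capitals, first for 5 lower members and then for 3 higher ones.
UQCRFS1 (chr19:29213162-29213191, minus strand): cgcctcctcgCGCCTGCGCcgtggttggaa
UQCRC1 (chr3:48609673-48609702, minus strand): tacggtactgCGCCTGCGCcgcgaccgcca
ATP5PF (chr21:25735093-25735122, minus strand): taggcgaagaaAAGATGGcggaggctgtgc
ATP5PD (chr17:75047037-75047096, minus strand): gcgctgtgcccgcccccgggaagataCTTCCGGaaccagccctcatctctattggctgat
ATP5F1A (chr18:46098326-46098355, minus strand): gaggggcagtaCTTCCGGgtcaggtgggcc
ATP5F1C (chr10:7788145-7788174, plus strand): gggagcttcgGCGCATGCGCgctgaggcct
COX6A1 (chr12:120437869-120437928, plus strand): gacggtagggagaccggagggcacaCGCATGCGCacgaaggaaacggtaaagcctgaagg
UQCRH (chr1:46303641-46303670, plus strand): agtgtgccgcaCTTCCGGccagatcgccgg
The stretches of ATP5PD and COX6A1 touch no exon of GENCODE 29, and the others overlap annotated exons by 28 to 30 bases. UQCRFS1, UQCRC1, ATP5F1C and COX6A1 show the NRF1 letters, and in ATP5F1C overlapping matches on both strands make the palindrome in capitals. ATP5PF shows the YY1 letters and ATP5PD, ATP5F1A and UQCRH those of GABP on the strand given or its complement. Lower and higher members thus both hold NRF1 and GABP letters, and a match is a description of the sequence only. ATP5F1B, ATP5F1D, ATP5MC3, ATP5MF, ATP5MF-PTCD1, ATP5MGL, COX4I2, COX6C, COX7A1, CYC1, SDHC, UQCRB and UQCRHL had no window.

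Complex II, succinate dehydrogenase, also works in the tricarboxylic acid cycle. Its catalytic flavoprotein SDHA read 12.2, 12.6 and 10.8 CPM in the scramble and 10.9, 10.9 and 11.5 CPM in the hairpin libraries, overlapping ranges with a log2 fold change of -0.10 ± 0.075 (SE, adjusted p = 0.364). SDHB, the iron-sulfur subunit, read 91.2, 90.1 and 89.2 against 93.9, 88.1 and 86.9 CPM and gave -0.0092 ± 0.031 (SE, adjusted p = 0.872). Neither catalytic subunit passed the test. SDHC (chr1:161314257-161375340, GRCh38 and GENCODE 29, as for all gene positions here), a membrane anchor that helps bind ubiquinone and heme, read 66.3, 66.7 and 65.8 CPM in scramble and 70.3, 73.9 and 67.1 CPM in hairpin libraries. Its hairpin libraries were all above the scramble libraries, with replicate 2 the highest, and the log2 fold change was 0.092 ± 0.035 (SE, adjusted p = 0.0434). The other anchor, SDHD, overlapped between groups at 0.036 ± 0.038 (SE, adjusted p = 0.541). The SDHC call was past the threshold in 7 of 14 alternatives and was lost without scramble replicate 1 (0.093, adjusted p = 0.0744), without scramble replicate 2 (0.10, adjusted p = 0.0742), without scramble replicate 3 (0.085, adjusted p = 0.130), without MEF2C hairpin replicate 1 (0.094, adjusted p = 0.0739) and without MEF2C hairpin replicate 2 (0.052, adjusted p = 0.387). It was also lost with the DESeq2 Wald test (0.088, adjusted p = 0.106). Summed over its 4 genes, complex II stood at 223 ± 2.80 CPM in scramble and 227 ± 4.69 CPM in hairpin libraries (SD, n = 3 each), and the libraries overlapped.

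Complex III, ubiquinol-cytochrome c reductase, was the complex with the lowest median, -0.10 over its 11 members including cytochrome c, or -0.07 over the 10 without it. Without scramble replicate 2 the median over the 11 was -0.045. The difference between complexes was not tested. Its cofactor-bearing nuclear subunits were both lower. UQCRFS1 (chr19:29205321-29213541), the Rieske iron-sulfur protein, read 86.0, 88.1 and 90.4 CPM in the scramble and 78.1, 77.9 and 80.5 CPM in the hairpin libraries. The groups did not overlap, and the log2 fold change of -0.16 ± 0.031 (SE, adjusted p = 6.05e-05) was the lowest of the 45 members. CYC1 (chr8:144095027-144097525), which carries the heme of cytochrome c1, read 64.1, 70.7 and 65.8 CPM in scramble and 60.1, 61.0 and 60.02 CPM in hairpin libraries. Its 3 hairpin libraries lay close together below all scramble libraries, at a log2 fold change of -0.15 ± 0.036 (SE, adjusted p = 0.00169).

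Both core proteins, which face the matrix and hold the complex together, were lower too. UQCRC1 (chr3:48599002-48610976) read 180.1, 179 and 184 CPM in scramble and 168, 165 and 173 CPM in hairpin libraries, and UQCRC2 (chr16:21952660-21983660) read 146, 138 and 142 against 136, 132 and 132 CPM. Neither overlapped, with log2 fold changes of -0.10 ± 0.025 (SE, adjusted p = 0.00123) and -0.10 ± 0.026 (SE, adjusted p = 0.00442). Reads of UQCRC1 stood at 1.27 ± 0.0375 times those of UQCRC2 in scramble and 1.27 ± 0.0422 times in hairpin libraries (SD, n = 3), a difference smaller than the spread between replicates. Cytochrome c, the soluble carrier between complexes III and IV and a known trigger of apoptosis once released, is made from CYCS. CYCS (chr7:25120091-25125361) read 221, 234 and 228 CPM in scramble and 203, 211 and 204 CPM in hairpin libraries, without overlap, at -0.14 ± 0.024 (SE, adjusted p = 1.05e-05). All 5 lower genes of this group passed the threshold in each of the 14 alternatives. UQCRC1, UQCRC2 and CYCS stood above 100 CPM, where 44.8% of protein-coding genes were lower. UQCRFS1 and CYC1 stood between 50 and 100 CPM, where 29.5% were lower.

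Of the 6 small subunits of complex III, 1 was higher and 5 did not pass the test. Over tested protein-coding genes 20.8% were lower and 16.3% higher, and shares by transcript length are given with the levels below. None was lower with edgeR, DESeq2 or limma-voom, and 0 of the 6 were lower at an unadjusted p under 0.05, but with GC content and length offsets UQCRQ was lower (-0.12, adjusted p = 0.0108). UQCRH (chr1:46303631-46316776), the hinge protein beside cytochrome c1, read 79.1, 80.4 and 81.8 CPM in scramble and 84.1, 86.1 and 85.4 CPM in hairpin libraries. Those groups did not overlap, and the log2 fold change was 0.083 ± 0.030 (SE, adjusted p = 0.0333). The UQCRH call held in 6 of 14 alternatives and was lost without scramble replicate 1 (0.071, adjusted p = 0.120), without scramble replicate 2 (0.084, adjusted p = 0.0643), without MEF2C hairpin replicate 2 (0.073, adjusted p = 0.141) and without MEF2C hairpin replicate 3 (0.081, adjusted p = 0.0710). It was also lost with no filter (0.085, adjusted p = 0.0555), with the DESeq2 Wald test (0.080, adjusted p = 0.0629) and with GC content and length offsets (0.027, adjusted p = 0.530). Its intronless copy UQCRHL shares 8.45% of its 50-base stretches with other genes, read 4.54 ± 0.311 CPM in scramble (SD, n = 3) and gave -0.10, not past the threshold. UQCRB gave 0.10 (adjusted p = 0.0875), UQCR10 0.033, UQCRQ -0.035 and UQCR11 -0.046, and all 4 overlapped between groups. UQCRB passed the threshold as higher in 6 of 14 alternatives. The ratio of UQCRH reads to UQCRC1 reads was 0.444 ± 0.00537 in scramble and 0.505 ± 0.0160 in hairpin libraries (SD, n = 3), and the libraries did not overlap. Summed over its 11 genes, complex III with cytochrome c stood at 1010 ± 14.8 CPM in scramble and 961 ± 8.35 CPM in hairpin libraries (SD, n = 3), also without overlap, and it was the only one of the 4 complexes whose summed libraries did not overlap. Without CYCS the sums were 782 ± 8.93 and 755 ± 11.3 CPM, again not overlapping. For single genes, 20.5% of all those tested had the hairpin wholly below. The genes of most CPM in the sum, CYCS, UQCRC1 and UQCRC2, stood above 100 CPM, where 44.8% of protein-coding genes were lower. Whether the sums differ between complexes was not tested.

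**Figure D2:**
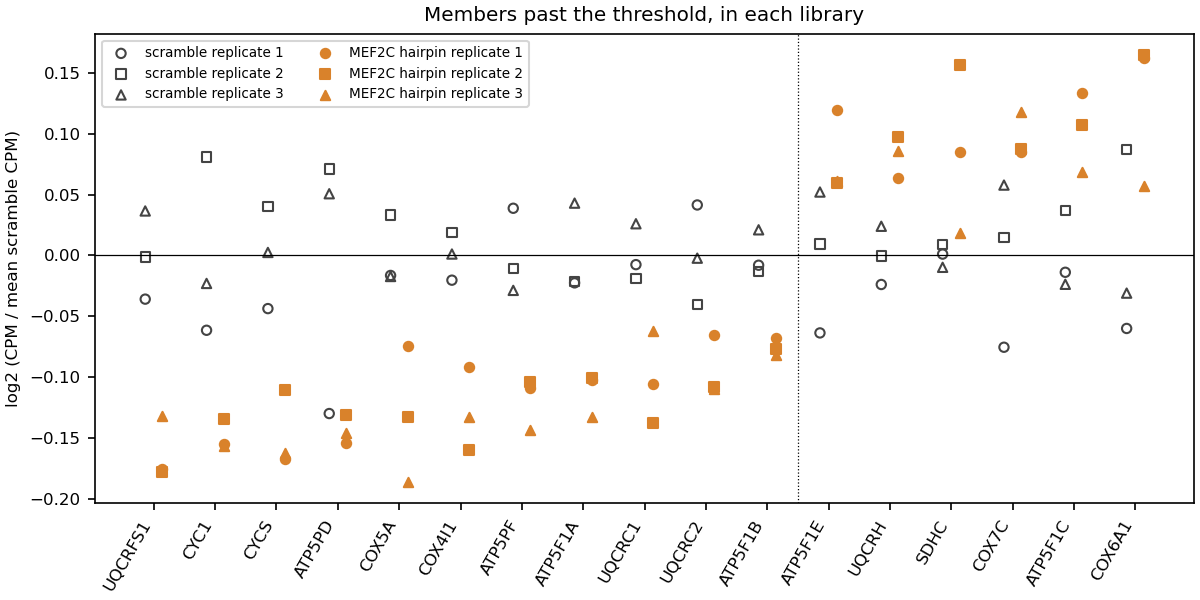
CPM of each of the 17 members past the threshold in each of the 6 libraries, as log2 of the ratio to the mean scramble CPM; open marks are scramble and filled marks MEF2C hairpin libraries, and the dotted line parts lower from higher members. The hairpin marks lie below all scramble marks for the 11 lower members, and for COX6A1 alone among the 6 higher members the groups overlap.

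Complex IV, cytochrome c oxidase, takes its catalytic subunits from mitochondrial DNA, and its nuclear subunits surround and regulate them. The highest of them per length, COX4I1 (chr16:85798633-85807044), the ubiquitous isoform of subunit 4, read 244, 251 and 248 CPM in scramble and 232, 221 and 226 CPM in hairpin libraries. It was lower without overlap, at -0.13 ± 0.023 (SE, adjusted p = 3.09e-05). COX5A (chr15:74919791-74938168), which joins subunit 4 early in assembly, read 103, 106 and 103 against 98.6, 94.7 and 91.3 CPM and was lower without overlap at -0.13 ± 0.030 (SE, adjusted p = 0.000843). Both calls held in all 14 alternatives. COX4I1 stood above 100 CPM, where 44.8% of protein-coding genes were lower. COX5A, by its mean over both groups, stood between 50 and 100 CPM, where 29.5% were lower. Higher were COX7C and COX6A1, small subunits with a single membrane helix. COX7C (chr5:86617904-86620962) read 85.9, 91.5 and 94.2 CPM in scramble and 96.0, 96.2 and 98.2 CPM in hairpin libraries, with scramble replicate 1 the lowest library and no overlap, at 0.10 ± 0.031 (SE, adjusted p = 0.0156). COX6A1 (chr12:120438090-120440742), the form of subunit 6A made outside heart and skeletal muscle, read 28.8, 31.9 and 29.4 against 33.6, 33.6 and 31.2 CPM. Its hairpin replicate 3 lay below scramble replicate 2, and the log2 fold change was 0.13 ± 0.048 (SE, adjusted p = 0.0318). The COX7C call held in 11 of 14 alternatives and was lost without scramble replicate 1 (0.059, adjusted p = 0.183) and without MEF2C hairpin replicate 3 (0.086, adjusted p = 0.0657), and with GC content and length offsets (0.064, adjusted p = 0.106). That of COX6A1 held in 8 of 14 and was lost without scramble replicate 1 (0.11, adjusted p = 0.151), without scramble replicate 3 (0.12, adjusted p = 0.121), without MEF2C hairpin replicate 1 (0.12, adjusted p = 0.113) and without MEF2C hairpin replicate 2 (0.11, adjusted p = 0.166). It was also lost with the DESeq2 Wald test (0.13, adjusted p = 0.0807) and with GC content and length offsets (0.075, adjusted p = 0.250).

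The other 7 tested subunits of complex IV did not pass the threshold in the main test. Of these, COX7A2 was lower with GC content and length offsets (-0.10, adjusted p = 0.0141), COX7B higher among genes of at least 1 CPM in at least 3 libraries (0.079, adjusted p = 0.0470), and COX8A higher without scramble replicate 2 (0.11, adjusted p = 0.0412). COX8A (0.078), COX7B (0.068) and COX7A2L (0.046), the last also known as a factor of supercomplex assembly, had hairpin libraries wholly above the scramble libraries. COX5B (0.043), COX6C (0.028), COX6B1 (0.0032) and COX7A2 (-0.065) overlapped. Over all genes tested, 19.5% had the hairpin wholly above. Of tested protein-coding genes, 20.8% were lower and 16.3% higher. The median over the 11 tested subunits was 0.04, against 0.0020 without scramble replicate 1 and -0.061 with GC content and length offsets. Their sum of 1032 ± 28.8 CPM in scramble overlapped that of 1022 ± 19.7 CPM in hairpin libraries (SD, n = 3). Reads of COX7C stood at 0.366 ± 0.0142 of those of COX4I1 in scramble and 0.428 ± 0.0122 in hairpin libraries, without overlap. The isoforms of lung, muscle and testis were not tested: COX4I2, COX6A2, COX6B2, COX7A1, COX7B2 and COX8C had at most 5 reads in any library, and COX6A2, COX6B2 and COX7B2 had 0 in all 6. At these depths 0 reads allow a level of up to 0.0309 to 0.0658 CPM, for counting error only.

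Complex V, the ATP synthase, had 4 lower and 2 higher members of 19 tested, and they belong to its F1 part and its peripheral stalk. Over tested protein-coding genes 20.8% were lower and 16.3% higher. ATP5F1A, ATP5F1B, ATP5F1C and ATP5F1E stood above 100 CPM, where 44.8% of protein-coding genes were lower and 12.5% higher. ATP5F1A and ATP5F1B encode the alpha and beta subunits, which alternate in the F1 head, the beta subunits holding the catalytic sites. ATP5F1A (chr18:46080248-46104334) read 439.7, 440.1 and 460.1 CPM in scramble and 416, 416 and 407 CPM in hairpin libraries, and ATP5F1B (chr12:56638175-56646068) read 564, 562 and 576 against 541, 538 and 536 CPM. Both were lower without overlap, at -0.11 ± 0.021 (SE, adjusted p = 7.13e-05) and -0.075 ± 0.020 (SE, adjusted p = 0.00267), and in all 14 alternatives. The beta to alpha ratio of reads was 1.27 ± 0.0171 in scramble and 1.30 ± 0.0125 in hairpin libraries (SD, n = 3), a small step without overlap.

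The central stalk turns inside that head, and of its genes 2 were higher. ATP5F1C (chr10:7788129-7807815), the gamma subunit at its axis, read 148, 153 and 147 CPM in scramble and 164, 161 and 157 CPM in hairpin libraries. It did not overlap, gave 0.10 ± 0.025 (SE, adjusted p = 0.00142) and was the only higher member past the threshold in all 14 alternatives. ATP5F1E (chr20:59025467-59032382), the epsilon subunit, read 189.5, 199 and 205 against 215, 206 and 207 CPM, with hairpin replicate 2 just above scramble replicate 3, at 0.080 ± 0.026 (SE, adjusted p = 0.0159). Its call was lost without scramble replicate 1 (0.049, adjusted p = 0.178) and without MEF2C hairpin replicate 1 (0.060, adjusted p = 0.127), and 23.2% of its exonic bases lie in exons of TUBB1. The delta subunit ATP5F1D overlapped between groups at 0.0058, and with GC content and length offsets it was lower (-0.16, adjusted p = 0.00341). Reads of ATP5F1C stood at 0.264 ± 0.00873 of those of ATP5F1B in scramble and 0.298 ± 0.00538 in hairpin libraries (SD, n = 3). For ATP5F1E over ATP5F1A the ratio was 0.443 ± 0.0113 and 0.507 ± 0.0108. Neither ratio overlapped between groups. These ratios, like those of UQCRH over UQCRC1 and COX7C over COX4I1, set a gene called higher over one called lower, so their direction follows from the calls.

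In the peripheral stalk, which holds the F1 head still against the turning rotor, all 4 genes had negative log2 fold changes and 2 passed the threshold. ATP5PD (chr17:75038863-75046985), subunit d, read 67.6, 77.7 and 76.6 CPM in scramble and 66.5, 67.5 and 66.8 CPM in hairpin libraries. Scramble replicate 1 lay next to the hairpin libraries but did not overlap them, and the log2 fold change was -0.14 ± 0.038 (SE, adjusted p = 0.00470). That call was lost without scramble replicate 2 (-0.10, adjusted p = 0.0641) and without scramble replicate 3 (-0.11, adjusted p = 0.0509). ATP5PF (chr21:25716503-25735673), coupling factor 6, read 100.4, 97.0 and 95.8 against 90.7, 91.0 and 88.5 CPM, without overlap, at -0.12 ± 0.029 (SE, adjusted p = 0.00160). Its exons share 23.1% of their bases with exons of the neighbours GABPA and JAM2, and those of ATP5PD share 19.1% with KCTD2 and a 7SL pseudogene. ATP5PB gave -0.044 and ATP5PO, the oligomycin sensitivity protein, -0.10, both overlapping.

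The 9 tested genes of the membrane rotor, the small membrane subunits and the inhibitor gave 0 calls with edgeR, DESeq2 and limma-voom, and 1, ATP5MF, had an unadjusted p under 0.05 with edgeR. With GC content and length offsets ATP5MC2 was lower (-0.069, adjusted p = 0.0299). ATP5MC1, ATP5MC2 and ATP5MC3, which encode the same mature c subunit of the rotor ring, gave 0.082, -0.012 and 0.016. Among small membrane subunits ATP5MF (0.12) and ATP5MG (0.051) had hairpin libraries wholly above the scramble libraries, while ATP5MJ (0.029), ATP5MK (0.029) and ATP5ME (-0.066) overlapped. Over all genes tested, 19.5% had the hairpin wholly above. ATP5ME shares 61.6% of its exonic bases with MYL5. Without scramble replicate 1 it passed the threshold as lower (-0.18, adjusted p = 0.00236). ATP5IF1, the inhibitor that blocks ATP hydrolysis when the membrane potential is lost, gave -0.013 with overlap. The read-through gene ATP5MF-PTCD1, 93.8% of whose exonic bases lie in exons of its neighbours, stood at 0.339 ± 0.0899 CPM in scramble (SD, n = 3) and was not past the threshold. ATP5MGL, a copy of ATP5MG, had at most 4 reads in a library and was not tested. The sum over complex V was 2385 ± 59.7 CPM in scramble and 2329 ± 33.7 CPM in hairpin libraries, which overlapped. The median log2 fold change was 0.01, against -0.049 without scramble replicate 1 and -0.065 with GC content and length offsets.

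To set levels of different genes side by side, they were taken as CPM per kilobase of the shortest principal transcript in GENCODE 29. The read ratios and the CPM classes above take no account of length. In scramble libraries COX4I1 stood at 349, ATP5F1B at 309, CYCS at 285, ATP5F1E at 284 and COX6C at 272 CPM per kilobase. CYCS and ATP5F1E did not differ beyond their SDs of 8.28 and 11.5. Within complex II the levels were low for SDHA at 4.97 and SDHC at 4.88, against 78.2 for SDHB and 38.1 for SDHD. SDHA shares 8.59% of its 50-base stretches with other genes, where reads that align to several places are left uncounted. For SDHC the principal transcript is 13566 bases long and for UQCRB, at 15.6, 5575 bases, and a level per kilobase moves with that length. Across the 45 members, the log2 fold change had a Spearman rho of -0.23 with the mean level of both groups and -0.17 with transcript length. Over 7380 protein-coding genes of at least 20 CPM the values were -0.16 and -0.03. Members share libraries and are not independent, so these coefficients are descriptions. Among protein-coding genes of at least 20 CPM, those with principal transcripts under 750 bases were higher in 23.7% and lower in 18.2%. Of the 22 members there, 4 were higher and 4 lower. From 1500 to 3000 bases the shares were 13.8% and 29.4%, and of 5 members 0 were higher and 4 lower. At 3000 bases or more the shares were 15.5% and 33.5%, with 1 of 4 members higher and 1 lower. The part of length in the calls was not tested.

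**Figure D3:**
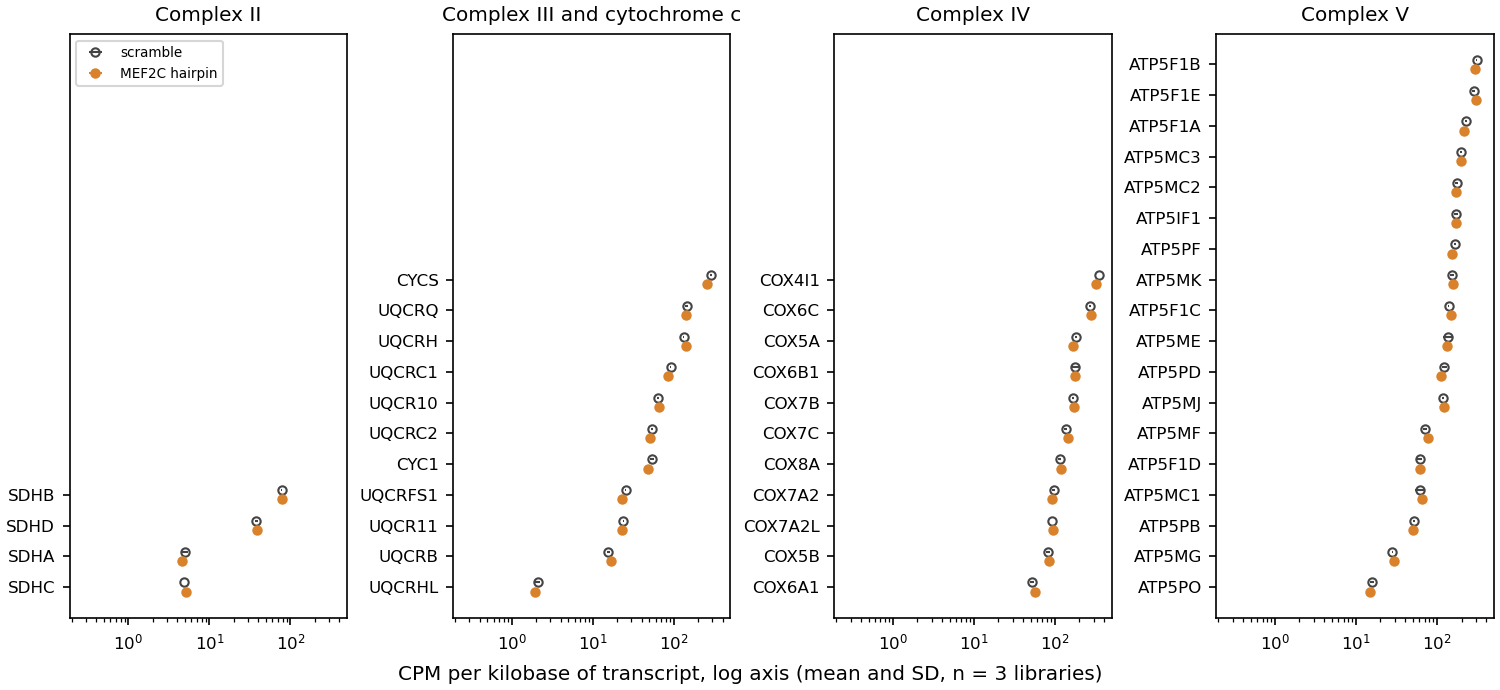
Level of the tested members of each complex in CPM per kilobase of transcript on a log axis, as mean and SD of 3 libraries, for scramble (open) and MEF2C hairpin (filled); ATP5MF-PTCD1 is not drawn. The 2 groups differ little beside the spread between genes, which runs from 2.08 for UQCRHL to 349 for COX4I1 in scramble.

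A pair of libraries stood at the low end of their group for many members. Scramble replicate 1 was the lowest of its group for 32 of 45 members, against 33.6% of all genes tested, and hairpin replicate 3 was the lowest of its group for 26 of 45, against 34.8%. Hairpin replicate 3 also had 16.1% of its reads aligned to more than 1 place, against 3.56% to 6.86% in the other libraries. Higher calls were 1 without scramble replicate 1, as given above, and were 5 without hairpin replicate 3. Lower calls were 12 and 11.

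**Figure D4:**
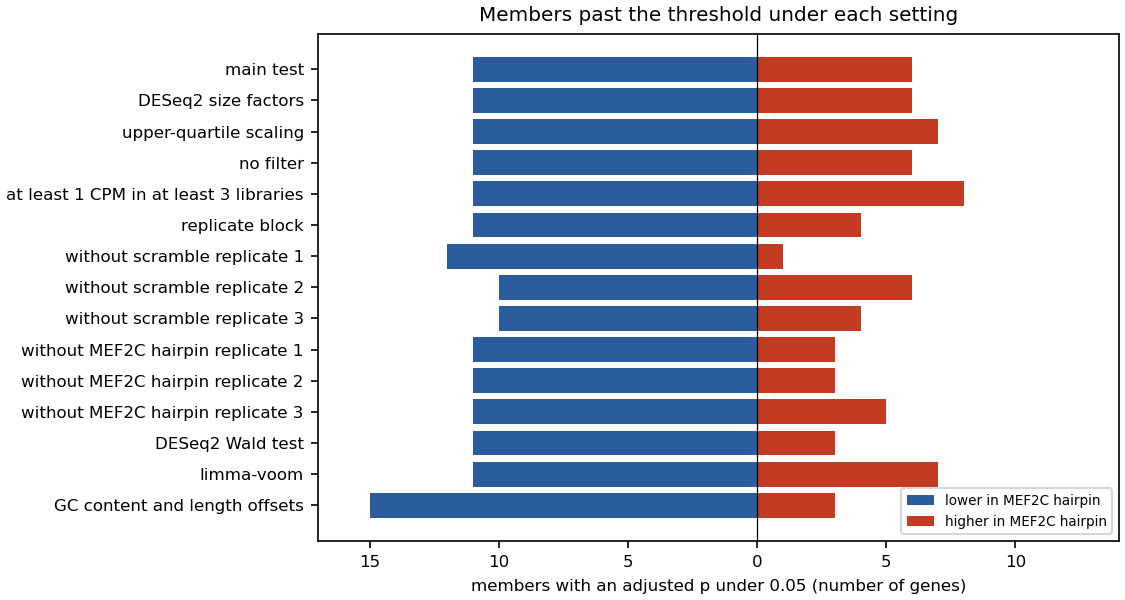
Number of members past an adjusted p of 0.05 under the main test and each of 14 alternatives, lower to the left in blue and higher to the right in red. Lower calls run from 10 to 15 and higher calls from 1 to 8.

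Assembly factors, which insert cofactors and join subunits, were read beside the complexes. For complex III, 4 of 10 passed the test, all lower, with a median of -0.08. Beside this count and those below, 20.8% of tested protein-coding genes were lower and 16.3% higher. LYRM7, a chaperone of the Rieske protein, read 67.5, 62.9 and 66.9 CPM in scramble and 57.9, 57.4 and 56.1 CPM in hairpin libraries, at -0.21 ± 0.035 (SE, adjusted p = 1.56e-05). BCS1L, which moves the Rieske protein across the membrane, read 23.4, 26.1 and 23.8 against 21.8, 20.4 and 19.8 CPM, at -0.24 ± 0.055 (SE, adjusted p = 0.000863). TTC19, which helps clear fragments of that protein, gave -0.17 ± 0.037 (SE, adjusted p = 0.000268). None of these 3 overlapped between groups, and 20.5% of all genes tested had the hairpin wholly below. UQCRFS1, their shared client, was itself lower, and a link between them was not tested. Between 50 and 100 CPM, where LYRM7, TTC19 and UQCRFS1 stood, 29.5% of protein-coding genes were lower. For complex IV, 6 of 27 factors were lower and 2 higher, with a median of -0.03. COX19 gave -0.17, COX16 -0.58 and COA1 0.13. For complex V, 1 of 6 was lower, ATPAF1, a chaperone of the beta subunit, at -0.20 ± 0.033 (SE, adjusted p = 9.13e-06). For complex II, 1 of 4 was lower, SDHAF1 at -0.20, and 1 higher, SDHAF4 at 0.38, calls that held in 6 and 8 of 14 alternatives. Among 4 further genes of complex IV and supercomplexes outside the symbol rule, HIGD2A was higher at 0.12, in 11 of 14 alternatives.

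Mitochondrial DNA supplies 6 subunits to complexes III, IV and V, and 2 of them passed the test, both lower. MT-CYB, cytochrome b of complex III, read 3128, 3370.1 and 3122 CPM in scramble and 2838, 2791 and 2624 CPM in hairpin libraries. The groups did not overlap, and the log2 fold change was -0.22 ± 0.044 (SE, adjusted p = 0.0139). MT-CO1, the catalytic subunit of complex IV, read 8198, 8285 and 8095 against 7669, 7834 and 7563 CPM, without overlap, at -0.091 ± 0.016 (SE, adjusted p = 2.57e-05). The others, MT-CO2 (-0.029), MT-CO3 (-0.064), MT-ATP6 (-0.073) and MT-ATP8 (-0.039), overlapped and did not pass the test. MT-ATP6 did pass it in 3 of 14 alternatives, among them no filter and limma-voom. In complex III the catalytic subunits of both genomes, MT-CYB, CYC1 and UQCRFS1, were thus all lower.

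Regulators of respiratory genes were lower in 8 and higher in 1 of 18 tested. Of these, TFAM, YY1, PPRC1, GABPA, POLG and SP1 stood above 100 CPM, a level at which 44.8% of protein-coding genes were lower and 12.5% higher. TFAM, which packages mitochondrial DNA and starts its transcription, read 148, 145 and 149.8 CPM in scramble and 132, 134 and 133 CPM in hairpin libraries, without overlap, at -0.15 ± 0.025 (SE, adjusted p = 1.30e-05). TWNK, the mitochondrial helicase, gave -0.16, the mitochondrial polymerase POLG -0.072 and the coactivator PPRC1 -0.10. Of the factors whose letters were searched in the promoters, YY1 gave -0.12 ± 0.022 (SE, adjusted p = 7.50e-05) and the GABP subunit GABPA -0.10 ± 0.029 (SE, adjusted p = 0.00833). GABPB2 was lower at -0.10 and GABPB1 was not past the threshold at -0.036. The calls of GABPA and POLG held in 11 of 14 alternatives and that of GABPB2 in 13. NRF1 overlapped between groups at -0.039 ± 0.040 (SE, adjusted p = 0.525). ESRRA, a nuclear receptor of mitochondrial genes, was lower at -0.18 with overlapping libraries, in 8 of 14 alternatives, and SP1 was higher at 0.086.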

How the data were processed

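RNA sequencing of 6 Karpas-45 libraries gave the data. TRIzol extraction and TruSeq libraries are given per the labels' protocols. The deposited values are raw counts of reads per gene from the authors, who used Trim Galore, STAR and HTSeq on hg38, per the submitters' processing notes. Not given in the sources used here are tool versions, the annotation release and the strand setting. Reads of overlapping and antisense genes may not be told apart. The 5 summary lines per file, which name no gene and took 19.2% to 31.4% of reads, stayed out.

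A filterByExpr minimum of 10 counts selected the genes, and libraries were scaled by TMM and tested with edgeR 4.0.16 (R 4.3.3) by the quasi-likelihood test with group as the only term. Adjusted p-values are Benjamini-Hochberg over 17677 genes, with a threshold of 0.05. CPM use TMM-scaled totals, and standard errors (SE) were derived from the log2 fold change and F. The biological coefficient of variation was 0.0324. Chi-square values between replicates were 3.34 to 4.50 per gene, above sampling noise, so no library was treated as a repeat deposit of another. Dropped entries held at most 0.127% as many reads as the members. Coordinates, transcripts and exon overlaps came from GENCODE 29 on GRCh38, and promoter windows from RefSeq.

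Every member is accounted for; of each further gene list the genes past the threshold are named, up to the 3 of lowest adjusted p, and all mitochondrially encoded subunits and regulators could be. Not every gene so chosen is reported here. The members and lists were chosen with earlier results of these data known. The alternatives tried were upper-quartile scaling, size factors of DESeq2, no filter, at least 1 CPM in at least 3 libraries, a replicate block, leaving out each library, DESeq2 1.42.0, limma-voom (limma 3.58.1), and offsets for GC content and length. The test was tried on simulated data.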

Additional observations from a re-analysis of the deposited data

How the results depend on the processing

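Of 629 member values under the 14 alternatives, 28 kept their direction and lost the threshold and 12 kept it and passed the threshold. In 33 values, of 14 members, the sign changed, and 1 of these was past the threshold: ATP5F1D with GC content and length offsets, at -0.16. Members called higher were 3 with the DESeq2 Wald test and 3 with GC content and length offsets, against 6 in the main test, and ran from 1 to 6 when 1 library was left out. Members called lower ran from 10 to 12 when 1 library was left out. Leaving out 1 library gave medians of -0.0023 to 0.030 for complex II, -0.10 to -0.045 for complex III, 0.0020 to 0.060 for complex IV and -0.049 to 0.029 for complex V. GC content and length offsets gave medians of -0.018, -0.14, -0.061 and -0.065 for complexes II to V. They also moved the median over all genes tested, from 0.0041 in the main test to -0.0371. The cause was not tested. Of the members called, 10 lower and 1 higher passed the threshold in every alternative. Samples with the same replicate number deviated with correlations of -0.10, 0.02 and 0.03 over 10207 genes, so the numbers do not pair them. The replicate block called 4 members higher and 11 lower, without SDHC (adjusted p = 0.0634) and UQCRH (adjusted p = 0.0535), and 2308 genes higher and 2584 lower, against 2386 and 2711 without it. With 3 technical replicates of 1 line and 1 hairpin, changes of this size say nothing of the spread between cultures or hairpins.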

Other observations

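Complex I, which feeds electrons into the same chain from NADH, was read beside complexes II to V. Of its 37 nuclear subunits 7 were lower and 5 higher, with a median log2 fold change of 0.00. Over tested protein-coding genes 20.8% were lower and 16.3% higher. Only the 3 subunits of lowest adjusted p are named here, and all 3 were lower. NDUFA10, an accessory subunit, read 112, 115 and 115 CPM in scramble and 99.3, 101 and 98.2 CPM in hairpin libraries, at -0.20 ± 0.027 (SE, adjusted p = 3.70e-07). NDUFV1 and NDUFS1, which hold the flavin and iron-sulfur clusters of the electron path, gave -0.16 ± 0.030 (SE, adjusted p = 8.28e-05) and -0.12 ± 0.024 (SE, adjusted p = 0.000268). All 3 were below the scramble libraries without overlap. Their means over both groups were above 100 CPM, where 44.8% of protein-coding genes were lower and 12.5% higher.

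Enzymes of the tricarboxylic acid cycle other than complex II passed the test in 6 of 13 cases, all lower, with a median of -0.08. Over all protein-coding genes of at least 100 CPM, where DLST and OGDH stand, 44.8% were lower. DLST and OGDH, which belong to the oxoglutarate dehydrogenase complex, gave -0.20 ± 0.026 (SE, adjusted p = 9.38e-08) and -0.14 ± 0.025 (SE, adjusted p = 2.41e-05). Among membrane carriers 2 of 5 tested were lower and 1 higher: the phosphate carrier SLC25A3 gave -0.12, VDAC1 -0.081 and VDAC3 0.10, the last in 9 of 14 alternatives. SLC25A6 was listed at 0 reads in every library. Reads that align to several places were left uncounted, so this value does not show that the gene was silent.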
